A study of Gallus gallus with 300 samples.

Results

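SOX2, SOX8, SOX9 and SOX10 are 4 SOX transcription factor genes among the 13631 gene symbols counted in single cells of the chicken utricle, one of the balance organs of the ear, and each was chosen by its symbol. The cells came from the utricle sensory epithelium of wild-type chickens at posthatch day 7, and all of them share this genotype and age. Epithelia of several utricles were pooled, freed from the stroma with thermolysin and dissociated, and viable cells were sorted singly into wells of 5 plates, so no animal is named for a cell. RNA was read by Smart-Seq2, a full-length method without molecular identifiers. Of 300 deposited cells, 24 had fewer than 1000 genes or 50000 counts and were removed, and the totals of the kept cells ran from 66490 to 1234012 counts with a median of 406690.5. Because the labels give 1 group and no animal, no difference between cell groups was tested, and no p-value was computed.

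SOX proteins bind DNA through a shared HMG box. SOX2, of the SOXB1 group, marks the prosensory domain of the ear, from which hair cells and supporting cells arise. In mice it is kept in supporting cells and in some vestibular hair cells. SOX8, SOX9 and SOX10 form the SOXE group and act in the otic placode and vesicle, in neural crest and glia, and, for SOX9, in cartilage. Hair cells are the mechanosensory receptors, and supporting cells surround them and, in birds, give rise to new hair cells. ATOH1 is the factor that starts hair cell differentiation, and OCM encodes oncomodulin, a calcium buffer of mature hair cells.

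Cells were classed without any SOX gene. Supporting cells were those with at least 1000 counts of GJB6 per 1000000 counts of the cell (CPM), GJB6 being a gap junction gene, and fewer than 4 of 12 hair cell genes such as MYO7A and OTOF at 10 CPM or more. Hair cells had at least 4 of the 12 and less GJB6. This gave 89 supporting cells, 32.2% of the kept cells, and made 59.8% of the kept cells hair cells, while 13 cells met both criteria and 9 met neither. GJB6 ran from 3854 to 53236 CPM in supporting cells and from 0 to 891 CPM in hair cells. No supporting cell had more than 2 of the 12 hair cell genes, and 17 hair cells had 4 or 5. The median supporting cell carried 9 of 12 check markers, among them OTOGL and JAG1, against 1 in the median hair cell. Not all 12 set the classes apart. OTOG was detected in 79.8% of supporting and 71.5% of hair cells, and FGFR3 in only 3 supporting and 0 hair cells. Outside the genes that set the classes, the 10 leading genes of the supporting cells included the check markers OTOGL, OTOP1 and CDO1, and GFI1, a hair cell factor, led the hair cells. The medians were 1792 genes and 323509 counts per supporting cell, and 3500 genes and 443464 counts per hair cell. Plates 2 to 6 held 14, 11, 27, 22 and 15 supporting cells and 30, 35, 28, 38 and 34 hair cells.

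The SOXE genes were genes of the supporting cells, and SOX2 was rarely read in either class. At 10 CPM or more, SOX8 was detected in 59 of 89 supporting cells, which is 66.3% (55.5 to 75.97%, exact binomial 95% interval). The share was 65.2% (54.3 to 74.96%) for SOX9 and 62.9% (52.03 to 72.9%) for SOX10. In hair cells the same shares were 4.85% (2.12 to 9.33%) for SOX8, 0.606% (0.0153 to 3.33%) for SOX9 and 0.606% (0.0153 to 3.33%) for SOX10. SOX2 was detected in 7.87% (3.22 to 15.5%) of supporting cells and in 6.67% (3.37 to 11.6%) of hair cells. These intervals cover only the number of cells, not the spread between animals.

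Carried-over RNA and depth bear on such shares. OCM, a hair cell gene, was detected in 22.5% of supporting cells and GJB6 in 23.6% of hair cells, against 91.5% and 100% in the other class. GJB6 set the classes, so its 100% was fixed, and hair cells were limited to less than 1000 CPM of it. The hair cell shares of all 4 SOX genes lay below 22.5% and 23.6%. Whether they reflect expression or carry-over was not tested, and they are not read as expression here. OCM and GJB6 are far more abundant in their own class than the SOX genes, and the share that carry-over gives at SOX levels was not measured. SOX2 had means of 2.84 CPM in supporting cells and 4.12 CPM in hair cells, so few of its reads were counted in either class. How fully the annotation behind the counts captures SOX2 was not tested. When each cell was thinned to 50000 counts, with at least 1 count as detection, the supporting cell shares were 62.9% for SOX8, 52.8% for SOX9 and 61.8% for SOX10. The thinned hair cell shares were 7.27%, 1.21% and 1.21%. SOX2 stood at 5.62% of supporting cells and 6.67% of hair cells after thinning.

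**Figure D1:**
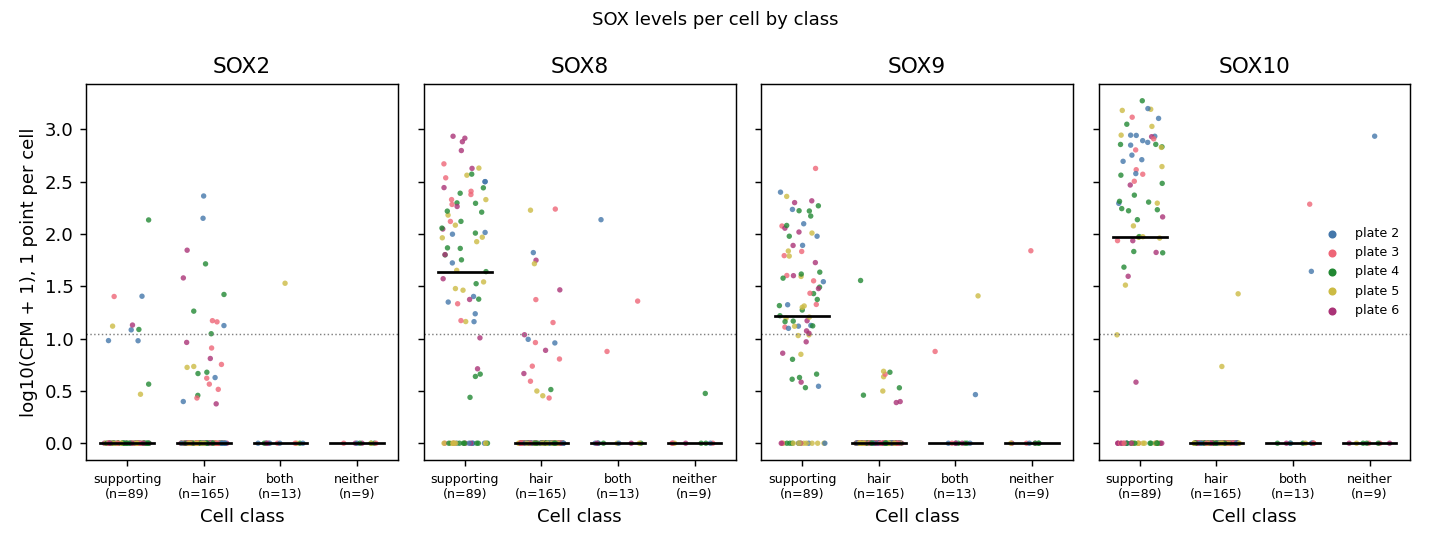
Level of each SOX gene in every kept cell on a log10(CPM + 1) axis, by class (89 supporting cells, the hair cells, 13 cells that met both criteria and 9 that met neither), with points coloured by well plate, black lines at the class median and a dotted line at 10 CPM. SOX8, SOX9 and SOX10 have medians above 10 CPM in supporting cells and at 0 in hair cells, and SOX2 has a median of 0 in every class.

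SOX10, a factor of neural crest, glia and otic epithelium, showed the widest gap between the classes. Its mean in supporting cells was 704 CPM on plate 2, 358 on plate 3, 271.9 on plate 4, 308 on plate 5 and 98.7 on plate 6, which is 348 ± 221.5 CPM (SD, n = 5 plates). In hair cells its mean was 0 on every plate but plate 5, where it was 0.796 CPM. No plate mean of the hair cells came near the lowest plate mean of the supporting cells. The share of all genes with such a gap was not counted. Summed over cells, SOX10 had 9547 counts (9356 to 9740.5, exact Poisson 95% interval) in the 89 supporting cells and 22 counts (13.8 to 33.3) in all hair cells, 20 of them in a single cell. Copies of a molecule made by PCR cannot be told apart in these reads, so the Poisson intervals cover counting error only and are too narrow. With a pseudocount of 1 CPM, the log2 ratio of supporting to hair cells was 8.23 ± 1.07 (SD of 5 plate ratios), and 12 of 10677 measured genes, SOX10 included, had a ratio at least as high. Measured genes reached 10 CPM in at least 5 cells, and a pseudocount understates the ratio of low genes. With a pseudocount of 10 CPM the ratio was 5.14, and the hair cell level lies below either pseudocount.

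Within supporting cells SOX10 was mostly either not read or well above 10 CPM. It was at 0 in 31 of 89 cells, between 0 and 10 CPM in 2, between 10 and 100 CPM in 12 and at 100 CPM or more in 44. Among the 56 cells with SOX10 the lowest value was 31.5, the median 374.5 and the highest 1878 CPM. Detection varied by plate, from 13 of 14 cells on plate 2 through 7 of 11, 18 of 27 and 12 of 22 on plates 3 to 5 to 6 of 15 on plate 6. Plate 2 was the highest and plate 6 the lowest in both share and mean. Supporting cells with SOX10 had a median of 2302 genes per cell and those without it 1371, at median totals of 339126 and 269798 counts. The rank correlation of SOX10 with genes per cell was 0.54 over the 89 cells, and with total counts 0.07. Thinned to the same depth, cells with and without SOX10 still had medians of 1997 and 1210 genes, and the part of gene number in the detection of SOX10 was not tested.

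SOX8, a SOXE factor that also acts in glia and in the gonad, was also higher in supporting cells on every plate. Its supporting cell means were 68.6, 170.2, 86.1, 76.8 and 279.9 CPM on plates 2 to 6, and the hair cell means 2.75, 6.59, 0.0807, 5.87 and 3.05 CPM. The plate means of the classes did not overlap, and the share of all measured genes of which this holds was not counted. Their averages of 136.3 ± 90.05 and 3.67 ± 2.62 CPM (SD, n = 5 plates) gave a log2 ratio of 4.88 ± 1.24, which was 3.42 with a pseudocount of 10 CPM. The order of the plates was not that of SOX10, since plate 6, the lowest for SOX10, was the highest for SOX8. SOX8 was at 0 in 25 supporting cells, between 0 and 10 CPM in 5, between 10 and 100 CPM in 26 and at 100 CPM or more in 33. The 59 cells with SOX8 ranged from 13.5 to 859.5 CPM with a median of 112.9.

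SOX9, known for its role in cartilage and in the otic placode, was read in 58 of 89 supporting cells. Its supporting cell means were 57.8, 72.9, 43.9, 27.3 and 58.1 CPM on plates 2 to 6, and no hair cell mean exceeded the 1.54 CPM of plate 4. The averages were 52.004 ± 17.2 and 0.394 ± 0.644 CPM (SD, n = 5 plates), a log2 ratio of 5.25 ± 0.88. That ratio was 2.58 with a pseudocount of 10 CPM and 3.91 as a difference of mean log2(CPM + 1). In supporting cells SOX9 was at 0 in 19 cells, between 0 and 10 CPM in 12, between 10 and 100 CPM in 42 and at 100 CPM or more in 16. Detected values ran from 10.2 to 423 CPM with a median of 38.6. Cells with and without SOX9 had similar gene numbers, with medians of 1717 and 1792. CPM were not divided by transcript length, so levels of the 4 genes are not compared with each other.

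SOX2 differed between the classes by less than the spread of the plates. In supporting cells its means were 3.76, 2.21, 5.53, 0.641 and 0.832 CPM on plates 2 to 6. The hair cell means were 12.9, 1.40, 4.04, 0.23 and 3.56 CPM on the same plates. Hair cells were higher on plates 2 and 6 and supporting cells on the other 3. The log2 ratio of supporting to hair cells was -0.60 ± 1.01, which was -0.13 without the cell of highest SOX2 and 0.041 among cells of at least 2000 genes. Few cells carried the signal, since 1 cell held 53.5% of the SOX2 CPM of supporting cells and another 33.9% of those of hair cells. In supporting cells SOX2 was at 0 in 78 cells and ran from 11.1 to 135.3 CPM with a median of 12.5 in the 7 detected cells. In the 11 hair cells with SOX2 it ran from 10.1 to 229.99 CPM with a median of 25.4. A cell with no read of SOX2 at this depth is not shown to lack it.

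**Figure D2:**
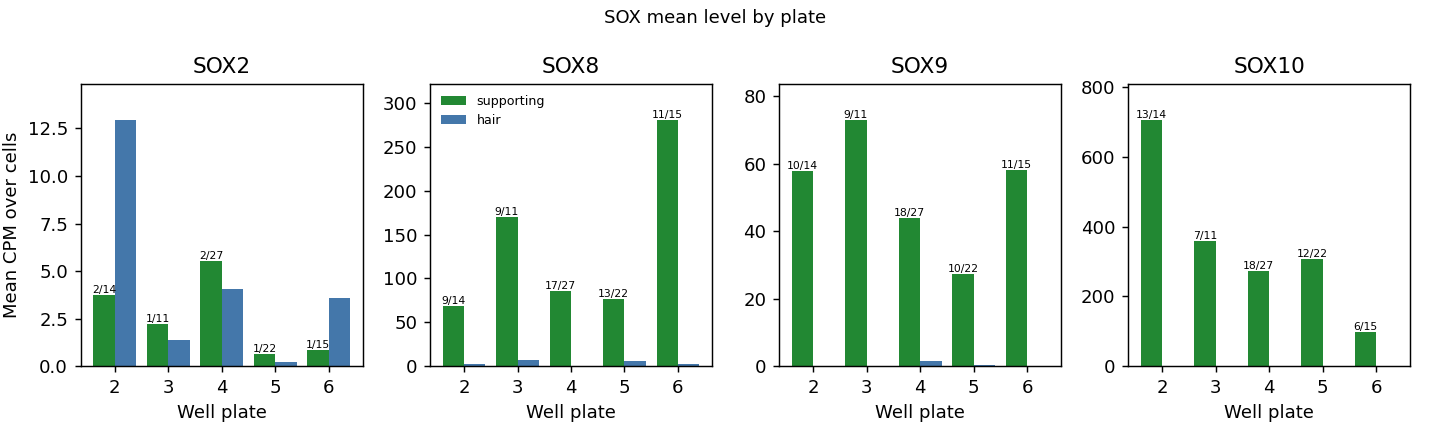
Mean CPM of each SOX gene per well plate in supporting cells (green) and hair cells (blue), with the number of supporting cells at 10 CPM or more over all supporting cells of that plate above each green bar. SOX8, SOX9 and SOX10 are higher in supporting cells on all 5 plates, while SOX2 is higher in hair cells on plates 2 and 6.

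Against all genes, 13.2% of the 10677 measured genes were at least 4-fold higher in supporting cells and 14.8% at least 4-fold higher in hair cells. SOX8, SOX9 and SOX10 were among the first and SOX2 among neither. The median measured gene had a log2 ratio of -0.098. Only a description is possible from this, since the genes were chosen with results of these cells known.

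Hair cells were then divided by OCM level, since the series is about cell type identity. Of the hair cells, 14 had OCM below 10 CPM, 47 had 10 to 1000 CPM, 50 had 1000 to 10000 CPM and 54 had at least 10000 CPM. SOX8 was detected in 2 of 14, 5 of 47, 1 of 50 and 0 of 54 cells of these bands, in rising order of OCM. For the highest band the exact binomial 95% interval of the share ran from 0 to 6.6%, and for the 61 cells below 1000 CPM the share was 11.5% (4.74 to 22.2%). The means were 6.43, 10.3, 1.19 and 0.163 CPM in the same order, so both bands below 1000 CPM of OCM lay above both bands over it. The exact Poisson 95% interval of the summed SOX8 counts ran from 168.6 to 224.4 in the 61 cells of low OCM, while the 54 cells of high OCM held 4 counts (1.09 to 10.2). These intervals do not cover the spread between cells, and 1 cell held 30.0% of the SOX8 CPM of the 61.

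The log2 ratio of SOX8 between high and low OCM was -3.09 ± 1.74 (SD of 5 plate ratios). It was negative on 4 plates and 0.32 on plate 4, where both sides had means under 0.3 CPM. Of the measured genes 7.35% were at least 4-fold lower and 6.29% at least 4-fold higher in hair cells of high OCM, and SOX8 was the only 1 of the 4 SOX genes beyond that fold. With a pseudocount of 10 CPM the ratio was -0.90, and as a difference of mean log2(CPM + 1) it was -0.69, both short of 4-fold. Without the cell of highest SOX8 it was -2.66. Every one of the 8 hair cells with SOX8 had none of the other 3 SOX genes at 10 CPM, and 7 of them had OCM below 1000 CPM. Their SOX8 values ran from 13.3 to 172.2 CPM with a median of 53.1, against 13.5 to 859.5 CPM in supporting cells with SOX8. The cells with the highest values, 172.2 and 167.97 CPM, had 5 of the 12 hair cell genes, as did another at 51.04 CPM. The rest of these hair cells had 6 to 11. With the bound at 6 hair cell genes instead of 4, the log2 ratio of SOX8 between supporting and hair cells was 5.63. The split by OCM was not run at that bound, so the part of these cells in it was not tested. Of the 8, 1 had GJB6 at 10 CPM or more, against 23.6% of all hair cells, and 8 cells are too few to compare these shares. The part of carried-over RNA in their SOX8 was not tested.

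SOX2 was detected in 1 of 14, 5 of 47, 4 of 50 and 1 of 54 hair cells in rising order of OCM. The means were 16.4, 2.78, 5.34 and 0.954 CPM, and the value of the lowest band came from a single cell at 229.99 CPM. Its log2 ratio of high to low OCM was -1.86 ± 2.34, smaller than the spread over plates, with 3 plates lower, 1 higher and 1 at 0 on both sides. SOX9 had 3 counts in hair cells of high OCM and 12 in those of low OCM. The exact Poisson 95% intervals were 0.619 to 8.77 and 6.2 to 20.96, and they do not cover the spread between cells. The log2 ratio of SOX9 was -0.54 ± 0.87, smaller than its spread over plates. It was 0.15 without the cell of highest SOX9, a cell of low OCM with 34.96 CPM. SOX10 had 0 counts in both and so no ratio. The 22 SOX10 counts of hair cells all fell in the band of 1000 to 10000 CPM OCM, in 2 cells.

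**Figure D3:**
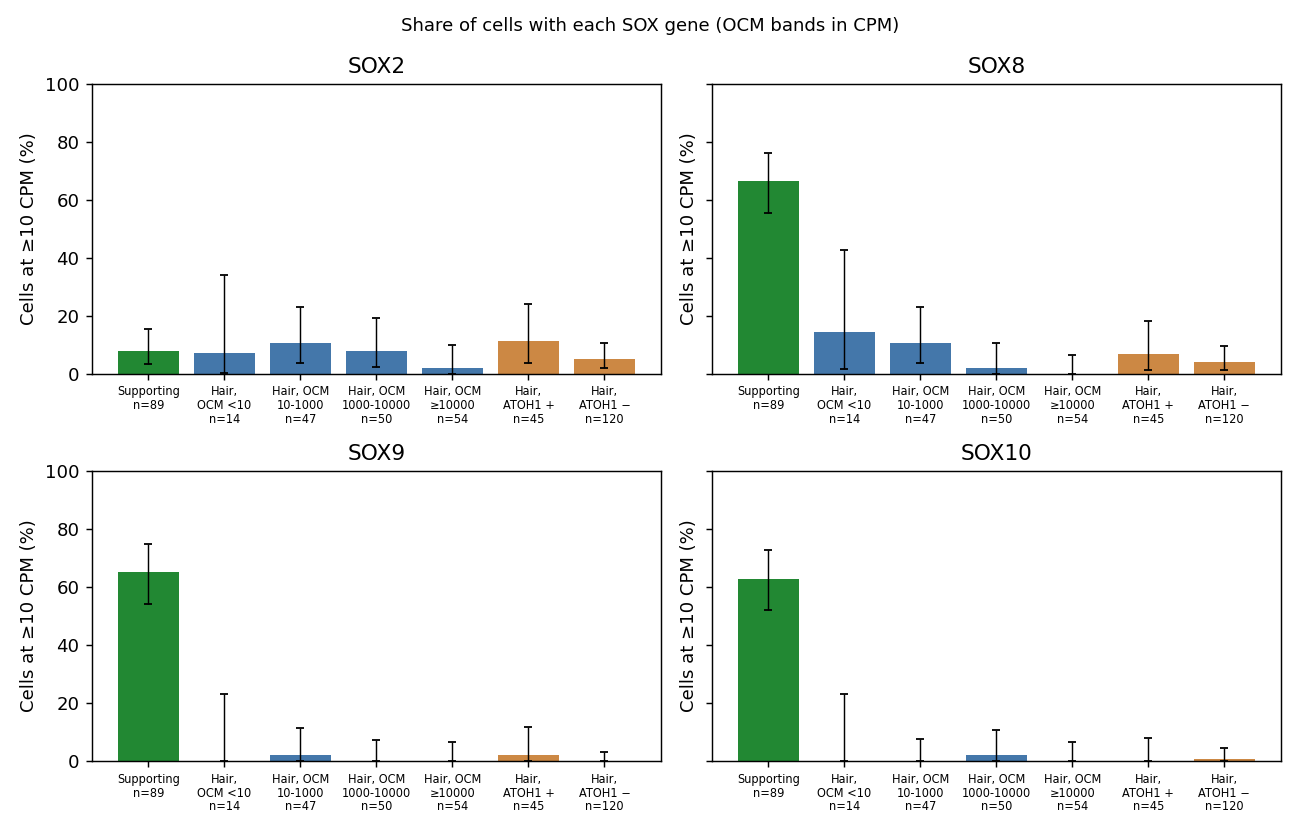
Percentage of cells with each SOX gene at 10 CPM or more in supporting cells (green), in hair cells by OCM band (blue) and in hair cells with and without ATOH1 (orange), with exact binomial 95% intervals as error bars. SOX8 runs from 14.3% of hair cells with OCM below 10 CPM to 0% of those with at least 10000 CPM, with overlapping intervals.

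ATOH1 was at 10 CPM or more in 45 hair cells and below it in 120, and of the 45 cells 3 had OCM of at least 10000 CPM. SOX2 was detected in 5 of the 45 cells with ATOH1, 11.1% (3.71 to 24.05%), and in 6 of the 120 without it, 5.00% (1.86 to 10.6%). The plate means of SOX2 on plates 2 to 6 were 26.1, 2.46, 12.2, 0.616 and 1.25 CPM in hair cells with ATOH1, and 7.27, 1.03, 0.782, 0.142 and 4.82 CPM in those without. Cells with ATOH1 were higher on 4 plates and lower on plate 6. The log2 ratio was 1.32 ± 1.58, less than its spread over plates, and it was -0.43 when ATOH1 detection was set at 50 CPM and 0.21 without the cell of highest SOX2. Cells with ATOH1 also had more genes, with a median of 3771 against 3351, and the part of gene number in this ratio was not tested.

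SOX8 was detected in 3 of 45 hair cells with ATOH1 and in 5 of 120 without it, and its log2 ratio of -0.31 ± 2.12 was far smaller than its spread over plates. SOX9 had 18 counts in hair cells with ATOH1 and 6 in those without, and 11 of the 18 came from a single cell. Its log2 ratio was 1.03 ± 1.10, less than the spread over plates. SOX10 had 0 counts in the 45 cells with ATOH1 and 22 in the 120 without, all on plate 5. Across all measured genes 3.8% were at least 4-fold higher and 5.49% at least 4-fold lower in hair cells with ATOH1, and none of the 4 SOX genes passed either fold.

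The 11 hair cells with SOX2 were spread over 4 plates, and 5 of them also had ATOH1 and 6 had OCM below 1000 CPM. HES5, a Notch target of supporting cells, was at 10 CPM or more in 3 of the 11 and GJB6 in 2. Over all hair cells these shares were 10.9% and 23.6%, and 11 cells are too few to compare with them. A cell on plate 4 was the only hair cell with 2 of the 4 SOX genes, with SOX2 at 50.9 and SOX9 at 34.96 CPM beside 779 CPM of OCM and 15.9 CPM of ATOH1. The 7 supporting cells with SOX2 came from all 5 plates, and all 7 had HES5 and at least 1 SOXE gene. Over all supporting cells these shares were 76.4% and 96.6%, so little is read from the 7 cells. Their median was 2453 genes per cell, against 1647.5 in supporting cells without SOX2. ATOH1 was detected in 2 of these 7 and in 9 of the other 82 supporting cells.

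Co-detection per cell was counted for the 6 pairs. In supporting cells SOX8 and SOX9 were found together in 40 of 89 cells, 44.9% (34.4 to 55.9%). SOX8 and SOX10 shared 38 cells, 42.7% (32.3 to 53.6%), and SOX9 and SOX10 shared 35, 39.3% (29.1 to 50.3%). Of cells with SOX8, 67.8% (54.4 to 79.4%) had SOX9, against 18 of the 30 cells without SOX8 (40.6 to 77.3%). SOX10 was present in 64.4% (50.9 to 76.4%) of cells with SOX8 and again in 18 of the 30 without it. It was present in 60.3% (46.6 to 72.95%) of cells with SOX9 and 67.7% (48.6 to 83.3%) of those without. In each of these pairs the intervals with and without the other gene overlapped.

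Levels gave the same picture. Over the 89 supporting cells the rank correlation was 0.091 between SOX8 and SOX9, -0.16 between SOX8 and SOX10 and 0.016 between SOX9 and SOX10, and 0.17, -0.21 and 0.019 after thinning. These cells share 5 plates and differ in depth, and correlations this weak in sparse counts are no finding. For SOX2 the pairs were small in number. Among the 7 supporting cells with SOX2, 6 had SOX8, 4 had SOX9 and 6 had SOX10, against 64.6%, 65.9% and 60.98% of the 82 cells without SOX2. The intervals of 42.1 to 99.6% for SOX8 and for SOX10 and of 18.4 to 90.1% for SOX9 include those shares.

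Every combination of the SOXE genes occurred in supporting cells. All 3 genes were detected in 26 cells, 29.2% (20.05 to 39.8%), and at least 1 of them in 86 cells, 96.6% (90.5 to 99.3%). SOX8 with SOX9 alone was found in 14 cells, SOX8 with SOX10 in 12 and SOX9 with SOX10 in 9. SOX8 alone was found in 7, SOX9 alone in 9, SOX10 alone in 9 and none in 3. The median number of genes per cell was 1214 in cells with none, 1401 with 1, 1664 with 2 and 2196.5 with all 3, so the number of SOXE genes read per cell rose with the number of genes read. After thinning, at least 1 SOXE gene was found in 83 supporting cells and all 3 in 20. Of the hair cells 93.9% had none, 10 had 1 and 0 had 2 or more, where a count of 0 allows a share of up to 1.82%.

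**Figure D4:**
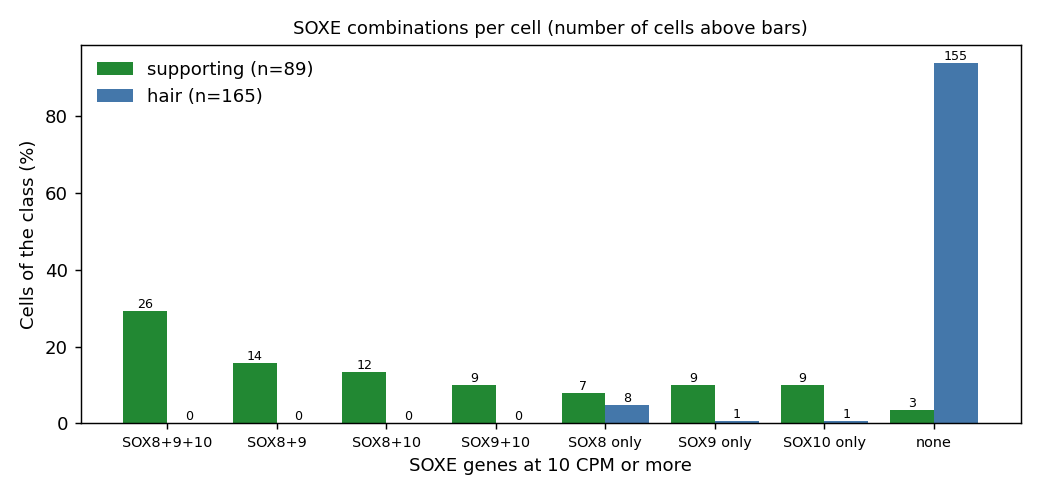
Percentage of supporting cells (green) and hair cells (blue) with each combination of SOX8, SOX9 and SOX10 at 10 CPM or more, with the number of cells above each bar. All 3 genes are found in 26 supporting cells, and 93.9% of hair cells have none of them.

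Cells outside the classes were few. Of the 13 cells that met both criteria, 5 had a single SOXE gene, which is 38.5% (13.9 to 68.4%), between the shares of supporting and hair cells. SOX8 was found in 2 of them, SOX10 in 2, SOX9 in 1 and SOX2 in 1, and the last 2 were the same cell, with SOX2 at 32.8 and SOX9 at 24.6 CPM. A well with 2 cells and a cell of mixed identity cannot be told apart here. Of the 9 cells that met neither criterion, 1 on plate 3 had SOX9 at 68.2 CPM beside 795 CPM of GJB6. Another, on plate 2, had SOX10 at 861 CPM with 5 of 7 glial markers, among them the myelin gene MBP at 19518 CPM, PMP22 at 8781 CPM and CDH19 at 97.8 CPM. That cell was the only kept cell with 5 glial markers, and its GJB6 was 7.82 CPM.

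Since SOX10 also marks glia and melanocytes, their markers were read in the supporting cells. The summed glial markers had a median of 0 CPM and a highest value of 1123 CPM in supporting cells, and 0 and 1099 CPM in hair cells. With SOX10 and without it, the median over supporting cells was 0 CPM. Of the 7 glial markers in the files, S100B was at 0 in all supporting cells, ERBB3 was detected in 1 and CDH19 in 2. MBP was detected in 22 supporting and 15 hair cells, which is 24.7% and 9.09%. Of the 4 melanocyte markers in the files, TYR, DCT and TYRP1 were at 0 in all supporting cells, and MITF was detected in 13. Of the 8 stromal markers, 6 were at 0 in all supporting cells, COL1A1 and PDGFRA among them. Neuron markers had a median sum of 0 CPM in both classes, with NEFL in 18 supporting and 5 hair cells, ELAVL4 in 26 and 27, and TUBB3 in 0 and 39. Immune markers had a median sum of 0 CPM as well, with CD74 in 24 supporting and 8 hair cells and PTPRC in 0 and 1. Of the endothelial markers 1 gene, PECAM1, was in the files, with a median of 0 CPM in both classes and detection in 25 supporting cells. The part of these markers in the SOX levels was not tested.

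Supporting cells were also compared by genes that mark their subsets. ALDH1A3, which encodes an enzyme of retinoic acid synthesis, was at 10 CPM or more in 56 of them. SOX10 was detected in 71.4% (57.8 to 82.7%) of these and in 48.5% (30.8 to 66.5%) of the other 33, with means of 383 and 240.04 CPM. SOX8 had means of 89.7 and 182.4 CPM in the same order, and SOX9 of 56.6 and 33.3 CPM. The groups had medians of 2042.5 and 1475 genes per cell and lay unevenly over plates, with 5 and 10 cells on plate 6, the lowest plate for SOX10 and the highest for SOX8. Averaged within the 4 plates with at least 5 cells on both sides, the means with and without ALDH1A3 were 395 and 290.9 CPM for SOX10, higher with it on all 4 plates. The SOX10 shares were 74.7% and 52.2%, higher with ALDH1A3 on 2 of the 4. SOX8 had 89.5 and 138.5 CPM, higher with ALDH1A3 on 2 of the 4 plates, and SOX9 59.6 and 32.95 CPM, higher on all 4. For ATF3, a stress response factor, the 28 cells with it had SOX10 in 71.4% and the 61 without in 59.02%, with 2005 and 1515 genes in the median cell. None of the 28 but 15 of the 61 were on plate 6. Within the 3 plates with at least 5 cells on both sides the SOX10 shares were 75% and 68.9%, and the SOX10 means of 398 and 441 CPM had the other order. TECTB, a tectorial membrane gene, was found in 11 supporting cells, of which 9 had SOX10, 9 had SOX9, 8 had SOX8 and 0 had SOX2. In the other 78 the shares were 60.3%, 62.8%, 65.4% and 8.97% in the same order. The exact binomial intervals of the 11 cells include these shares, with 48.2 to 97.7% for SOX10 and 0 to 28.5% for SOX2. The median cell had 2659 genes with TECTB and 1594 without it, and the part of gene number was not tested.

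Among hair cells, SOX8 was detected in 0 of 39 cells with TMC2, a mechanotransduction channel gene, and in 8 cells, 6.35%, of those without it. SOX2 was found in 1 of the cells with TMC2 and in 10 of those without. ISL1 was detected in 1 of the 61 hair cells of low OCM, which leaves no comparison.

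Of the 15 other SOX genes listed, 9 were in the files under their symbols and 6 were measured. SOX5 and SOX6, the SOXD genes that work with SOX9 in mammalian cartilage, were at least 4-fold higher in supporting cells. None of the 6 was at least 4-fold lower. Over all measured genes these shares were 13.2% and 14.8%, and 6 genes are too few to compare with them. SOX5 had 105.5 CPM in supporting and 9.48 CPM in hair cells, a log2 ratio of 3.34 ± 1.19. SOX6 had 138.4 and 11.4 CPM, a log2 ratio of 3.50 ± 1.14. The median log2 ratio of the 6 genes was 0.92, against -0.098 for all measured genes. SOX4 (1.18), SOX21 (0.67), SOX11 (-0.11) and SOX13 (-0.44) had ratios below their own spread over plates. SOX13 was detected in more hair cells, 29.7%, than supporting cells, 15.7%, and had a log2 ratio of -3.14 between high and low OCM, as SOX6 did at -3.10. Of all measured genes 7.35% were at least 4-fold lower in high OCM. SOX6 was detected in 12 hair cells, with a highest value of 905.6 CPM. No other pseudocount was tried for these 2 ratios, and their spread over plates is not given.

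In supporting cells SOX6 was found in 19 of 58 cells with SOX9, 32.8% (21.01 to 46.3%), and in 17 of 31 without it, 54.8% (36.03 to 72.7%). With SOX10 it was in 27 of 56 cells, 48.2% (34.7 to 61.97%), and without it in 9 of 33, 27.3% (13.3 to 45.5%). SOX5 was found in 39.3% (26.5 to 53.2%) of cells with SOX10 and 18.2% (6.98 to 35.5%) of those without. The pairings with SOX5 and SOX6 were chosen after their levels were seen, and all intervals overlap.

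**Figure D5:**
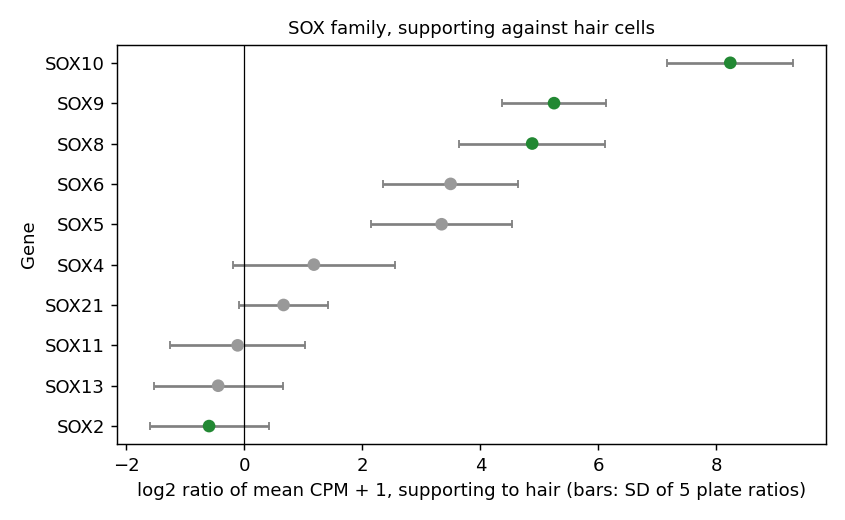
Log2 ratio of mean CPM plus a pseudocount of 1 in supporting cells to that in hair cells for the 10 measured SOX genes (green for SOX2, SOX8, SOX9 and SOX10, grey for the others), with the SD of the 5 plate ratios as bars. SOX10 is highest at 8.23, SOX5 and SOX6 stand at 3.34 and 3.50, and SOX2 is lowest at -0.60 with a bar that crosses 0.

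Genes known to work with SOX2 in the ear were split between the classes. Of 23 in the files 21 were measured, and 10 were at least 4-fold higher in supporting cells and 2 at least 4-fold lower, against 13.2% and 14.8% of all measured genes. The median log2 ratio was 1.70, against -0.098, and 15 of the 21 would have counted as measured from hair cells alone. The higher genes were led by the Notch ligand gene JAG1 (7.54), the Notch targets HES5 (7.21) and HEYL (6.89) and the receptor gene NOTCH1 (6.48). The 2 lower were GFI1 (-10.45) and POU4F3 (-3.68), factors of hair cell survival and maturation. ATOH1 (-1.05), the SOX2 partner gene EYA1 (0.49), PAX2 (-0.81), SALL1 (-1.28), INSM1 (-1.29) and LIN28B (-1.38) lay between, with EYA1 detected in 50.6% of supporting and 52.7% of hair cells. JAG1, HES5, HEYL and NOTCH1 were also check markers of the supporting cells. HEYL, found in 3 hair cells, and NOTCH1, in 0, could enter the count only on the supporting cell side. GFI1, found in 1 supporting cell, and POU4F3, in 0, could enter only on the hair cell side. Nothing is therefore read from the count.

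Genes known elsewhere as targets of SOXE factors were mostly read in supporting cells. Of 18 in the files 11 were measured, and 10 of these were at least 4-fold higher in supporting cells and 0 lower, against 13.2% and 14.8% of all measured genes, with a median log2 ratio of 3.96 against -0.098. Only 5 of the 11 would have counted as measured from hair cells alone, so genes such as ACAN, found in 8 supporting and 0 hair cells, could enter the count only on the supporting cell side, and nothing is read from it. S100B, in 4 hair and 0 supporting cells, had a log2 ratio of -2.23 and was not measured. The 10 higher genes included the cartilage-type matrix genes MATN4 (8.56), COL11A1 (5.85), COL9A3 (5.70) and COL9A1 (4.79), and the collagen gene COL2A1 (2.94). Some rested on few cells. MATN3 (2.32 ± 3.98) and HAPLN1 (2.38 ± 2.88) were each found in 4 supporting cells, with ratios below their spread over plates. COL9A1 was detected in 64.04% of supporting and 10.3% of hair cells, COL9A3 in 7.87% and 0.606%, and COL2A1 in 10.1% and 0%. MBP (2.21), a glial target of SOX10, was on the same side, while MITF (0.16), its melanocyte target, was the 1 measured gene within 4-fold. The list was written with earlier results of these cells known, and MATN4 was known to be a supporting cell gene.

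The genes most like each SOX gene were found by rank correlation of CPM over supporting and hair cells together, among 9310 genes, as a description that rests mainly on the class difference. For SOX8 they were MATN4 (0.63), HHATL (0.62), SERPINF2 (0.62), SLC1A3 (0.60) and DKK3 (0.60). For SOX9 they were IGFBP7 (0.77), SLC1A3 (0.77), OTOL1 (0.75), HTRA1 (0.74) and DKK3 (0.73). For SOX10 they were GJB2 (0.69), ANXA2 (0.69), CLDN1 (0.67), S100A6 (0.66) and NOTCH1 (0.66). SLC1A3, a glutamate transporter gene, and DKK3, of the Wnt antagonist family, were among the 5 most like both SOX8 and SOX9. No gene reached more than 0.32 with SOX2, and that gene, ASB6, had 0.023 after thinning, followed by USP49 (0.29), NAA60 (0.28), the Notch ligand gene DLL1 (0.28) and CASP9 (0.27).

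Over the 89 supporting cells alone the correlations were weak. The highest were 0.38 for SOX8 with JPT2, 0.38 for SOX9 with LOC107049011 and 0.47 for SOX10 with AKR1B1L. The next for SOX8 were DENND1B (0.35), MINOS1 (0.32), SPRED1 (0.31) and PDHB (0.30). PLOD2 (0.37), SCOC (0.36), ENOPH1 (0.34) and SLC1A3 (0.32) followed for SOX9, so SLC1A3 was among the 5 most like SOX9 in both sets of cells. LOC101750014 (0.46), LOC112530942 (0.46), BRD2 (0.45) and PGM2 (0.44) followed for SOX10, all below its correlation of 0.54 with genes per cell. SOX2 was found in fewer than 10 supporting cells and was left out.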

How the data were processed

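Per the labels, single cells of 1 tissue were read by Smart-Seq2. The deposited values are expected counts per gene symbol, estimated counts that need not be whole, and 4.27% of the non-zero values are not whole. The submitters' processing notes list FastQC, RSEM and STAR. Their versions, the genome build and the gene annotation were not given in the sources used here, and sequences and coordinates were not used here. Each file had 13643 rows, and 12 symbols on 2 rows were summed. All 4 members matched 1 RefSeq gene each by symbol.

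Counts were not rounded, except for thinning and Poisson intervals, and were scaled to CPM by the cell total. Level ratios used CPM averaged over cells of a plate and then over plates with at least 5 cells on both sides. Doublets were not called, as each well received a single sorted cell per the labels' protocols. The labels' protocols mention separate sort batches but tie no plate to one. Plates are not animals, and their SD is only a spread over plates. The members, lists, bounds and the rule for named genes (all members, the 5 most correlated genes, the list genes of largest ratio) were chosen with earlier results of these data known. Alternatives covered cell filters, plates left out, thinning, scaling, pseudocounts and class bounds. Values within plates for ALDH1A3 and ATF3 were added after the pooled ones were seen. The ratio and correlation scripts were tested on simulated data. Python 3.11.15, numpy 2.4.6, pandas 2.3.3 and scipy 1.17.1 were used. Results for some genes are not reported here.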

Additional observations from a re-analysis of the deposited data

Results flagged for a closer look

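By plate, the mean of SOX9 in hair cells stood apart on plate 4, with a gap of 0.84 of the range of the 5 plates, where 1 hair cell held 34.96 CPM. The mean of SOX10 in hair cells stood apart on plate 5, with a gap of 1 of the range, where its 22 counts came from 2 cells. The bound for 5 plates is 0.71, and 8 sets of plates were examined. Chance flags about 1 in 20 where values are normally distributed, a rate that does not hold for means near 0 on most plates. The SOX10 means of hair cells were 0 on every plate but plate 5, which fixes the gap at 1 whatever the level there. The lowest plate means of the supporting cells were 27.3 CPM for SOX9 and 98.7 CPM for SOX10.

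The 24 cells removed by the filter also carried SOXE genes. SOX8 was at 10 CPM or more in 20.8% of them, SOX9 in 33.3% and SOX10 in 29.2%. The removed cells enter no comparison but those of the setting without a cell filter. Every removed cell with SOX8, SOX9 or SOX10 at 10 CPM or more was among the 18 with GJB6 of at least 1000 CPM. The highest SOX10 value was 2251 CPM. SOX2 was found in 0 of the 24.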

How the results depend on the processing

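No paired analysis of samples was possible because the labels give 1 group and no numbers that pair samples. Cells of both classes shared plates, but each ratio was taken between means averaged over plates. Only the SD came from ratios within plates. Over 18 results under other settings, 21 values moved beyond the plate SD or the binomial interval, the others stayed within it, and 0 of the ratios beyond 4-fold changed sign. The cause of these moves was not tested. For supporting against hair cells, the log2 ratios with a pseudocount of 10 CPM were 3.42 for SOX8, 2.58 for SOX9 and 5.14 for SOX10. As differences of mean log2(CPM + 1) they were 3.91 for SOX9 and 5.41 for SOX10, a scale on which the median over measured genes shifted by -0.34. With plates left out in turn, the ratios ran from -0.95 to -0.0022 for SOX2, 4.39 to 5.21 for SOX8, 5.03 to 5.63 for SOX9 and 7.76 to 8.49 for SOX10.

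Between high and low OCM, SOX8 had -0.90 with a pseudocount of 10 CPM and -0.69 as a difference of mean log2 values, and -3.41 to -2.72 with plates left out. SOX10, at 0 on both sides, had -0.32 against all other hair cells and 0.066 with the OCM bound at 3000 CPM. Plates left out gave -2.78 to -0.69 for SOX2 and -0.75 to 0.12 for SOX9. Between hair cells with and without ATOH1, SOX2 had -0.43 with ATOH1 detection at 50 CPM and 0.93 to 1.78 with plates left out. The same runs gave -1.28 to 0.18 for SOX8, 0.18 to 1.23 for SOX9 and -0.31 to 0 for SOX10.

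Co-detection in supporting cells depended on the bound. At 50 CPM the shares were 15.7% for SOX8 with SOX9, 25.8% for SOX8 with SOX10 and 16.9% for SOX9 with SOX10, and 1.12%, 0% and 0% for SOX2 with SOX8, SOX9 and SOX10. At 1 count they were 56.2% for SOX8 with SOX9, 51.7% for SOX9 with SOX10 and 11.2% for SOX2 with SOX9. In cells of at least 2000 genes they were 69.2% for SOX8 with SOX10 and 56.4% for SOX9 with SOX10. Plates left out gave 42.3 to 50.7%, 38.7 to 47.8% and 34.7 to 41.9% for the SOXE pairs in the order above. For SOX2 with SOX8, SOX9 and SOX10 they gave 5.33 to 8.96%, 3.23 to 5.97% and 5.33 to 8.06%. The leave-out of the highest cell was chosen after seeing the data.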
